A study of Craterostigma plantagineum with 12 samples.

Results

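Cp_V2_contig_47446 and Cp_V2_contig_47684 are assembled transcript pieces of the resurrection plant Craterostigma plantagineum that the deposited annotation describes as sodium/hydrogen exchanger 4. They were picked from 48045 contigs because none of their reads came from fresh leaves although many came from drying leaves, so their absence in fresh leaves is how they were chosen and not a finding. They are 2 of 18 contigs described as sodium/hydrogen exchangers or antiporters and 2 of 6 described as exchanger 4. RNA came from leaves in 4 states of a drying cycle, each with 3 libraries. Fresh leaves had a relative water content (RWC) of 100%. Drying in pots took leaves to about 60% RWC in 3 to 4 days and to 2% RWC in 15 days, and rehydrated leaves came from dried plants held under water for 24 h. The labels name no mutation, transgene or agent other than the water treatment, plants were propagated vegetatively, and a library stood for a separate leaf pool from 6 to 9 plants. No watered plants of matching age are among the libraries, so water content and days without water cannot be told apart.

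Sodium/hydrogen exchangers are membrane proteins that let protons flow down their gradient in return for moving sodium or potassium ions the other way. In Arabidopsis the family has a vacuolar branch, to which exchangers 2 and 4 belong, an endosomal branch with exchanger 6, and a plasma membrane branch with exchanger 7, better known as SOS1, and exchanger 8. Vacuolar exchangers load the vacuole with potassium or sodium, and in that way take part in cell turgor, vacuolar pH and salt tolerance. Their proton gradient is built by the vacuolar ATPase and the vacuolar pyrophosphatase, while the plasma membrane ATPase does the same for SOS1.

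Libraries held 14784251 to 21271288 reads, and 98.52 to 98.71% of them matched a single contig. Levels are given in RPKM, which divides reads by contig length and by library size, and a state's level is the mean ± SD of its 3 libraries. The Rubisco small chain, the small subunit of the carbon-fixing enzyme, was read as a leaf marker. Its 2 contigs together took 8405 ± 2009 CPM (counts scaled to library size only) in fresh leaves and 4576 ± 803 after rehydration. They took 576 ± 60.1 at 60% RWC and 488 ± 45.6 at 2% RWC. As this level changed with the state and no other tissue is among the libraries, it does not show the tissue of the dry libraries. In bulk leaf RNA, fewer cells of a type and less RNA per cell cannot be told apart.

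Transcripts of both exchanger 4 contigs were abundant in leaves at 60% RWC, lower but still plentiful at 2% RWC, and scarce again after 24 h in water. Cp_V2_contig_47446, 374 bases long and described as exchanger 4 isoform X2, had 0 reads in each fresh library, 542, 371 and 487 reads at 60% RWC, 262, 304 and 229 at 2% RWC, and 29, 22 and 9 after rehydration. In RPKM its 60% RWC libraries stood at 81.1, 64.9 and 78.8, its 2% RWC libraries at 38.6, 38.2 and 41.4, and its rehydrated libraries at 4.53, 3.78 and 1.39. Among the 3 states with reads there was no overlap: every library of 60% RWC was above every library of 2% RWC, which in turn was above every rehydrated library. State means were 74.9 ± 8.79 RPKM at 60% RWC, 39.4 ± 1.75 at 2% RWC and 3.23 ± 1.64 after rehydration (SD, n = 3).

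Cp_V2_contig_47684, 548 bases long, followed the same course at a lower level. It had 0 reads in each fresh library, 258, 213 and 214 reads at 60% RWC, 129, 159 and 91 at 2% RWC, and 9, 6 and 4 after rehydration. These are 26.4, 25.4 and 23.6 RPKM at 60% RWC, 13.0, 13.6 and 11.2 at 2% RWC, and 0.96, 0.704 and 0.423 after rehydration. Here too these 3 states did not overlap, but the rehydrated libraries lay within a few reads of the fresh ones. State means were 25.1 ± 1.39, 12.6 ± 1.24 and 0.695 ± 0.269 RPKM (SD, n = 3).

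**Figure D1:**
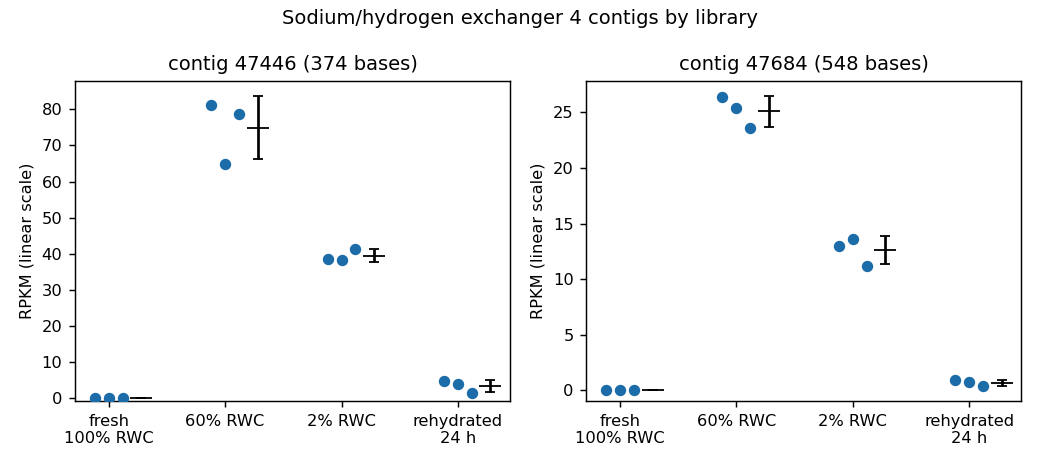
Level of Cp_V2_contig_47446 (left) and Cp_V2_contig_47684 (right) in RPKM on a linear scale, with 1 point per library, 3 libraries per state, and the mean ± SD of each state to the right of its points. Fresh libraries are at 0, the 60% RWC libraries are highest (64.9 to 81.1 and 23.6 to 26.4 RPKM), and the rehydrated libraries are close to the axis (1.39 to 4.53 and 0.423 to 0.96 RPKM).

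A count of 0 sets only an upper limit on a level. With 3 counts per fresh library as the limit, which covers counting error only, the fresh level was below 0.493 RPKM for Cp_V2_contig_47446 and below 0.337 RPKM for Cp_V2_contig_47684. Against that limit the 2% RWC level was at least 92.8-fold higher for Cp_V2_contig_47446 and at least 43.5-fold higher for Cp_V2_contig_47684. After rehydration the bounds were at least 5.79-fold and at least 1.83-fold. No test is attached to these bounds, because the fresh libraries chose the contigs. Among all 48045 contigs, Cp_V2_contig_47446 had a mean RPKM above 95.3% of contigs at 60% RWC, 89% at 2% RWC and 21.2% after rehydration. For Cp_V2_contig_47684 these shares were 83.7%, 69.3% and 3.52%.

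Contrasts between states other than fresh were tested, although the fresh libraries still entered the spread estimate of the fit. Many reads in drying leaves helped choose the contigs, so the declines below partly describe that choice. Both contigs fell from 2% RWC to rehydrated leaves. For Cp_V2_contig_47446 the log2 fold was -3.99 (SE 0.36, 15.9-fold lower, adjusted p = 1.34e-05), and for Cp_V2_contig_47684 it was -4.54 (SE 0.29, 23.3-fold lower, adjusted p = 2.19e-06), by the quasi-likelihood test of edgeR, adjusted over 46494 contigs by the Benjamini-Hochberg method. In that comparison 56.5% of tested contigs were called, and 25.4% were called lower. Here and throughout, called means an adjusted p below 0.05, two-sided, and percentages of called contigs refer to all those tested. The median log2 fold of all contigs was 0.13.

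From 60% RWC to rehydrated leaves the decline was larger. The log2 fold was -4.80 (SE 0.36, 27.9-fold lower, adjusted p = 1.21e-05) for Cp_V2_contig_47446 and -5.42 (SE 0.30, 42.8-fold lower, adjusted p = 2.48e-06) for Cp_V2_contig_47684, where 17.5% of contigs were called lower. From 60% to 2% RWC the differences were small. Cp_V2_contig_47684 fell 1.84-fold (log2 fold -0.88, SE 0.23, adjusted p = 0.012), where 25% of contigs were called lower. Cp_V2_contig_47446 had nearly the same log2 fold of -0.81 (SE 0.30) but was not called (adjusted p = 0.0531), although its libraries did not overlap. Its call hung on the fit: with only the 6 libraries of these states the adjusted p was 3.91e-05, and DESeq2 gave 0.0116. The high level in drying leaves had a part in choosing the contigs, so these declines are partly a description of that choice.

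The ratio of the 2 contigs to each other differed by less than its SD between the drying states. The RPKM of Cp_V2_contig_47684 was 0.339 ± 0.0476 of that of Cp_V2_contig_47446 at 60% RWC and 0.321 ± 0.0448 at 2% RWC. After rehydration it was 0.234 ± 0.0614, from 0.186 to 0.303, a range that overlaps that of 2% RWC (0.271 to 0.357) and rests on 4 to 9 reads of the rarer contig per library. Cp_V2_contig_47446 shared 4.31 to 9.61% of its reads with other contigs in the drying libraries, and Cp_V2_contig_47684 at most 0.775%. No sequence was at hand, so whether they are pieces of a single transcript or come from separate gene copies was not tested.

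The other exchanger 4 contigs rose and fell along with them and had few reads in fresh leaves. Cp_V2_contig_45899 (1180 bases) had 11, 4 and 0 reads in the fresh libraries, Cp_V2_contig_46339 (554 bases) had 4, 2 and 2, Cp_V2_contig_45014 (349 bases) had 5, 0 and 4, and Cp_V2_contig_47877 (321 bases) had 3, 1 and 0. All 6 contigs together thus had 36 fresh reads. With 3 counts over all fresh libraries together as the limit, the 0 of 36 on Cp_V2_contig_47446 and Cp_V2_contig_47684 allows a share of up to 8.33%. This 0 is the value by which they were chosen. By that limit they lay below the other 4, which had 15 (Cp_V2_contig_45899), 8 (Cp_V2_contig_46339), 9 (Cp_V2_contig_45014) and 4 (Cp_V2_contig_47877) fresh reads in all. The looser limit of 3 counts in each fresh library gave 0.493 and 0.337 RPKM. Whether the 2 differ from the other 4 in fresh leaves was not tested, because the fresh libraries chose them. The fresh means of Cp_V2_contig_45899 (0.246 RPKM), Cp_V2_contig_47877 (0.241) and Cp_V2_contig_46339 (0.291) lay below both limits. That of Cp_V2_contig_45014 (0.533) lay above both.

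These 4 contigs were not themselves selected for their fresh level, and their rise was tested. All 4 were called higher at 60% RWC than in fresh leaves, in a comparison where 15.6% of all contigs were. Whether the 4 are pieces of a single transcript, or of a transcript shared with Cp_V2_contig_47446 and Cp_V2_contig_47684, was not tested. Their calls may therefore not be independent of each other or of the choice of those contigs. Cp_V2_contig_45899 went from 0.246 to 50.3 RPKM (log2 fold 7.67, SE 0.60, adjusted p = 3.85e-06), Cp_V2_contig_47877 from 0.241 to 31.1 (6.92, SE 0.51, adjusted p = 2.14e-06), Cp_V2_contig_46339 from 0.291 to 16.2 (5.82, SE 0.30, adjusted p = 2.05e-07) and Cp_V2_contig_45014 from 0.533 to 19.4 (5.23, SE 0.70, adjusted p = 0.000174). Their median log2 fold was 6.37, beside -0.06 over all contigs. All 4 were also called lower after rehydration than at 2% RWC, where 25.4% of all contigs were. Their log2 folds were -2.32 to -4.22, with a median of -3.73. Against fresh leaves, Cp_V2_contig_45899 alone of the 4 was still called higher after rehydration (log2 fold 3.80, SE 0.56, adjusted p = 0.00249; 3.71% of contigs were called higher), and it lost the call when only the fresh and rehydrated libraries were fitted.

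Summed over their lengths, the 6 exchanger 4 contigs went from 0.215 ± 0.158 RPKM in fresh leaves to 38.1 ± 3.69 at 60% RWC, then to 22.1 ± 1.21 at 2% RWC, and to 2.44 ± 0.806 in rehydrated leaves. Cp_V2_contig_47446 and Cp_V2_contig_47684 held 33 ± 1.45% of its 6336 reads at 60% RWC, 29.6 ± 1.63% of 4003 at 2% RWC and 18.8 ± 3.62% of 403 after rehydration. Cp_V2_contig_45899 went the other way, from 46.8 ± 0.0917% to 51.1 ± 0.336% and 61.7 ± 6.62%. The share of the 2 contigs was 14.2 percentage points smaller in rehydrated leaves than at 60% RWC (18.8 against 33%), with no overlap of libraries. The exact two-sided permutation test gave p = 0.1 (adjusted over 2 shares, 0.1), the smallest value that 3 against 3 libraries allow, so this design cannot call the difference. The 2 shares are parts of the same total, and the level in drying leaves helped choose the 2 contigs.

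**Figure D2:**
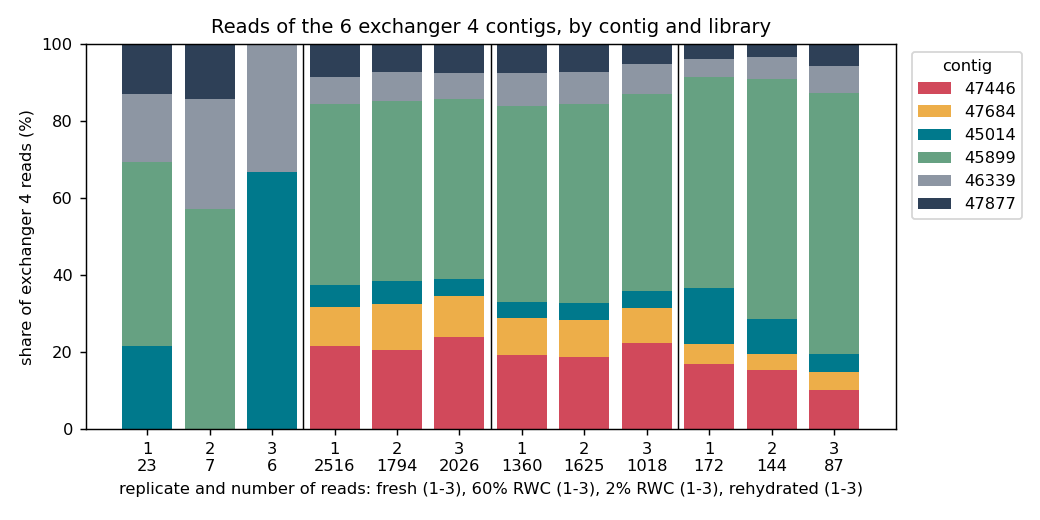
Share of the reads of the 6 exchanger 4 contigs that fell on each contig, in percent, with 1 bar per library and the number of reads under it; numbers in the legend are the ends of the contig names. The red and orange blocks (47446 and 47684) are absent from the fresh bars, which rest on 6 to 23 reads, and shrink from 33 to 18.8% between 60% RWC and rehydrated leaves.

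Order by level changed with the state. In fresh leaves exchanger 7 (Cp_V2_contig_11534, 52.6 ± 17.6 RPKM) and an exchanger 2-like contig (Cp_V2_contig_16816, 43.2 ± 11.3 RPKM) led the 18 contigs, and their libraries overlapped. At 60% RWC Cp_V2_contig_47446 was the highest of all, above the range of Cp_V2_contig_45899 (46.4 to 55.9 RPKM), and Cp_V2_contig_47684 was the fifth, just under Cp_V2_contig_47877 (26.9 to 38 RPKM). At 2% RWC Cp_V2_contig_47446 (38.2 to 41.4 RPKM) could not be separated from the exchanger 2-like contig Cp_V2_contig_12224 (36.8 to 41.3 RPKM), and Cp_V2_contig_47684 (11.2 to 13.6 RPKM) overlapped its neighbours Cp_V2_contig_47877, Cp_V2_contig_4986 and Cp_V2_contig_46339. After rehydration Cp_V2_contig_47684 was the lowest of the 18, within the range of Cp_V2_contig_46339 (0.627 to 0.928 RPKM).

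**Figure D3:**
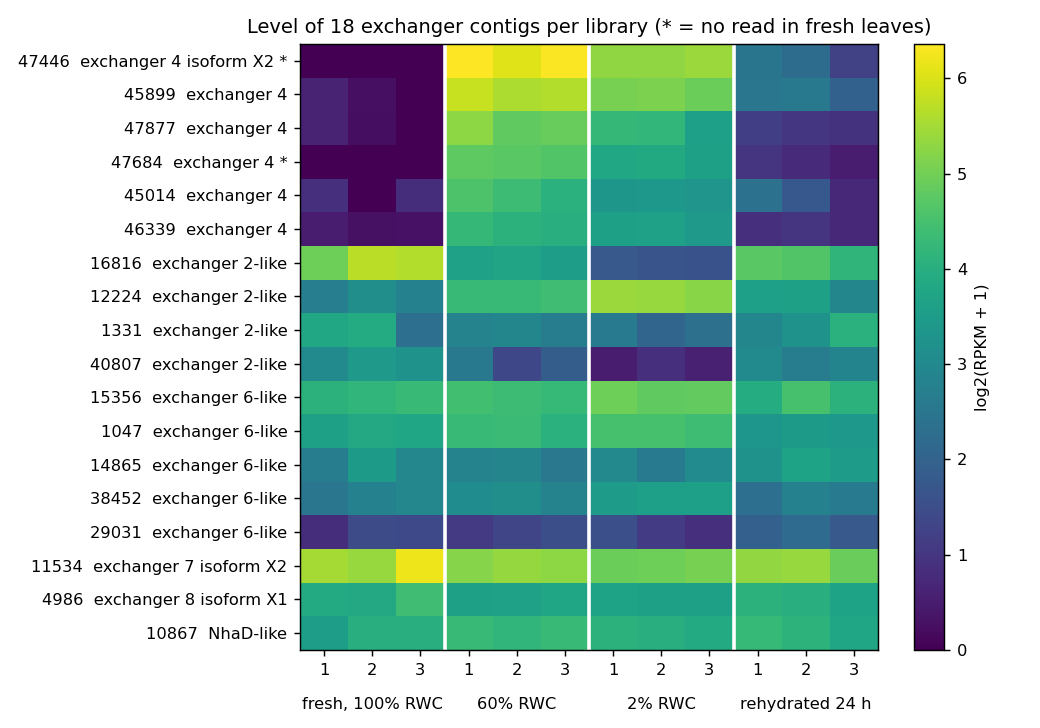
Level of the 18 exchanger contigs as log2(RPKM + 1) by colour, with contigs in rows and the 3 libraries of each state in columns; an asterisk marks the contigs without reads in fresh leaves. The upper 6 rows, exchanger 4, are dark in fresh leaves and bright at 60% RWC, where Cp_V2_contig_47446 reaches 81.1 RPKM, while most rows of other exchangers change little in colour.

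Exchangers of other types were called in both directions. Of the 16 contigs other than the 2, 7 were called higher and 2 lower at 60% RWC than in fresh leaves (38.9% of all contigs were called, 23.3% lower), and 4 of the 7 were the exchanger 4 contigs above. At 2% RWC against fresh leaves 8 were higher and 3 lower, where 60.9% of all contigs were called (26% higher, 34.9% lower). At 2% against 60% RWC 3 were higher and 3 lower, where 44.5% were called (19.5% higher). After rehydration 2 were higher and 8 lower than at 2% RWC, where 56.5% of all contigs were called (31.1% higher, 25.4% lower). Against fresh leaves 1 of the 16 was higher and 2 were lower after rehydration, where 9.41% of contigs were called (5.69% lower), and against 60% RWC 1 was higher and 8 were lower, where 37% were called (19.6% higher). Medians over the 16 ran from -0.71 (rehydrated against 2% RWC) to 0.62 (2% RWC against fresh leaves), beside -0.22 to 0.13 for all contigs.

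The exchanger 2-like contigs, named after vacuolar exchangers, parted in direction. Cp_V2_contig_12224 rose with drying, from 6.45 ± 1.2 RPKM in fresh leaves to 19.4 ± 0.815 at 60% RWC and 39.5 ± 2.36 at 2% RWC, and fell to 9.62 ± 2.68 after rehydration (log2 fold 1.71, SE 0.20, adjusted p = 6.26e-05 for 60% RWC against fresh). Unlike the exchanger 4 contigs it rose further from 60% to 2% RWC, with a log2 fold of 1.14 (SE 0.19, adjusted p = 0.00074). Cp_V2_contig_16816 did the opposite, from 43.2 ± 11.3 to 11.5 ± 0.67 and 2.21 ± 0.184 RPKM and back to 22.2 ± 4.65 (log2 fold -4.05, SE 0.22, adjusted p = 2.03e-07 for 2% RWC against fresh). Cp_V2_contig_40807 also fell with drying (8.46, 3.07 and 0.57 RPKM) and rose to 6.25 RPKM in water; its call at 60% RWC was lost without replicate 2 or 3 of that state and with the compared states only. Cp_V2_contig_1331 was called only at 2% RWC against fresh leaves (log2 fold -1.09, adjusted p = 0.0475), and 12 alternatives lost that call, including those without fresh replicate 1 or 2.

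Exchangers of endosomal type changed by small folds, and those of plasma membrane type were not called. Of the 5 exchanger 6-like contigs, 3 were higher at 2% RWC than in fresh leaves and none lower (all contigs 26% and 34.9%). They were Cp_V2_contig_1047 (12.4 and 21.1 RPKM, log2 fold 0.99, SE 0.15), Cp_V2_contig_38452 (5.76 and 10.8 RPKM, 1.13, SE 0.21) and Cp_V2_contig_15356 (17.4 and 28 RPKM, 0.90, SE 0.18). The same 3 were called lower after rehydration than at 2% RWC (25.4% of all contigs were), with log2 folds of -1.09 to -1.53. Cp_V2_contig_29031 and Cp_V2_contig_14865 were called in none of the 6 comparisons. In edgeR's test exchangers 7 and 8 were called in none either, with 37.9 ± 1.79 and 11.7 ± 0.594 RPKM at 60% RWC against 52.6 ± 17.6 and 15.9 ± 3.94 in fresh leaves. The unadjusted edgeR p of exchanger 7 was 0.0351 at 2% RWC and 0.0114 after rehydration, each against fresh leaves, and exchanger 8 had none below 0.05. The NhaD-like antiporter Cp_V2_contig_10867, of a type known from chloroplast envelopes in Arabidopsis, was called higher at 60% RWC (log2 fold 0.50, adjusted p = 0.0384), a call that 10 alternatives ended: the replicate block, the compared states only, and leaving out fresh replicate 1, any 60% or 2% RWC replicate or rehydrated replicate 2. Over all 18 contigs the sum went from 245 ± 32.8 CPM in fresh leaves to 337 ± 12.5 at 60% RWC, then stood at 313 ± 13.5 at 2% RWC and at 217 ± 23.6 in rehydrated leaves.

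**Figure D4:**
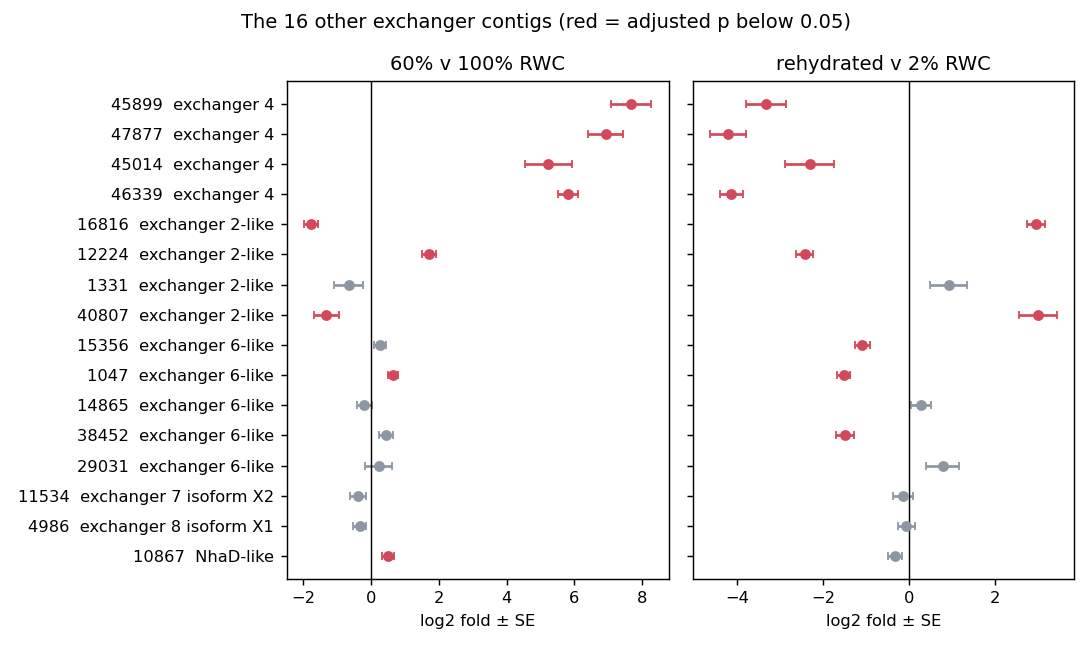
Log2 fold with its SE for the 16 other exchanger contigs at 60% against 100% RWC (left) and rehydrated against 2% RWC (right), red where the adjusted p was below 0.05. The 4 exchanger 4 contigs stand at 5.23 to 7.67 on the left and -4.22 to -2.32 on the right. On the left the other contigs lie between -1.78 and 1.71. On the right they lie between -2.43 (Cp_V2_contig_12224, exchanger 2-like) and 3.00, so the 2 ranges overlap there.

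As leaves dried to 60% RWC, most called contigs of vacuolar proton pumps were higher and most of plasma membrane proton pumps lower. Of 89 tested vacuolar pump contigs, which energise vacuolar exchangers, 49 were higher and 10 lower at 60% RWC than in fresh leaves (median log2 fold 0.61), beside 15.6% higher and 23.3% lower of all contigs (38 were called when only these states were fitted). Subunit E of the vacuolar ATPase (Cp_V2_contig_4408) rose from 153 ± 0.507 to 367 ± 17.8 RPKM (log2 fold 1.36, SE 0.16, adjusted p = 5.58e-05). The pump subunit a2-like contig Cp_V2_contig_24838 fell, from 3.59 ± 3.2 to 0.161 ± 0.157 RPKM (log2 fold -4.42, SE 0.96, adjusted p = 0.00409). After rehydration 13 vacuolar pump contigs were higher and 37 lower than at 2% RWC (median -0.35; of all contigs 31.1% were higher and 25.4% lower), among the higher ones the subunit a1-like contig Cp_V2_contig_41426, with 0 reads at 2% RWC and 14, 12 and 9 in water, at least 3.16-fold higher.

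Of 29 plasma membrane pump contigs, 6 were higher and 21 lower at 60% RWC (median -2.11; all contigs 15.6% and 23.3%). After rehydration 21 were higher and 1 lower than at 2% RWC (median 1.82; all contigs 31.1% and 25.4%). The contig at the highest level ran against that majority. Unlike the exchanger 4 contigs it was called higher at 2% than at 60% RWC (log2 fold 0.82, SE 0.20, adjusted p = 0.00733). Plasma membrane ATPase 1 (Cp_V2_contig_14760) went from 6.73 ± 2.05 RPKM in fresh leaves to 122 ± 9.51 at 60% RWC and 197 ± 14.4 at 2% RWC, and to 14 ± 2.9 after rehydration (log2 fold 4.30, SE 0.23, adjusted p = 2.46e-07 for 60% RWC against fresh, and -4.21, SE 0.23, adjusted p = 3.59e-07 for rehydrated against 2% RWC). The proton-exporting ATPase4 contig Cp_V2_contig_35245 had 0 reads at 2% RWC and 60, 37 and 41 in water, at least 12.4-fold higher.

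Among other cation transporters, calls were few for antiporters and mostly lower for potassium transport at 60% RWC. Of 57 other cation/proton antiporter contigs tested, 5 were higher and 9 lower (median -0.09; all contigs 15.6% and 23.3%), a count that ran from 7 to 18 with a library left out, and after rehydration against 2% RWC 21 were higher and 11 lower (median 0.65; all contigs 31.1% and 25.4%). The vacuolar cation/proton exchanger 3 contigs, which in Arabidopsis load calcium into the vacuole, were at their lowest where exchanger 4 was still high: Cp_V2_contig_3227 had 165 ± 67.9 RPKM in fresh leaves and 150 ± 38.8 in water, with 84 ± 11.2 at 60% RWC and 7.94 ± 2.04 at 2% RWC between them (rehydrated against 2% RWC 3.85, SE 0.34, adjusted p = 4.15e-06), and Cp_V2_contig_6965 rose in water by a log2 fold of 7.52 (SE 0.72, adjusted p = 7.78e-06). The antiporter 18-like contig Cp_V2_contig_29490 had 87, 10 and 4 fresh reads and 0 at 60% RWC; most of the fresh reads came from replicate 1, and the call was lost without any 1 of the 60% RWC libraries. Of 61 potassium channel and transporter contigs, 8 were higher and 22 lower at 60% RWC (median -0.31), with 26 and 12 after rehydration against 2% RWC (median 0.64), beside the same shares of all contigs. The channel subunit beta contig Cp_V2_contig_3733 rose from 20.2 ± 2.55 to 96.2 ± 8.31 RPKM at 60% RWC (log2 fold 2.36, SE 0.14, adjusted p = 6.12e-07). The potassium transporter 5-like contig Cp_V2_contig_41756 had 21, 2 and 12 fresh reads and 0 at 60% RWC, a level at least 3.86-fold lower there. The outward channel SKOR-like contig Cp_V2_contig_13822 had 0 reads at 2% RWC and 24, 16 and 24 in water, at least 5.74-fold higher.

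Calcineurin B-like proteins and their kinases (CIPK), calcium sensors that regulate SOS1 and other transporters, were called in both directions: of 85 tested contigs 28 were higher and 24 lower at 60% RWC (median -0.03; all contigs 15.6% and 23.3%), and 36 higher and 18 lower after rehydration against 2% RWC (median 0.66; all contigs 31.1% and 25.4%). CIPK2-like Cp_V2_contig_38177 shared the course of exchanger 4, going from 0.944 ± 0.402 RPKM in fresh leaves to 17.2 ± 0.712 at 60% RWC, to 9.05 ± 2.08 at 2% RWC and to 1.81 ± 0.455 in water (log2 fold 4.25, SE 0.34, adjusted p = 4.46e-06 for 60% RWC against fresh). CIPK12-like Cp_V2_contig_4905 rose from 72.7 ± 31.4 to 198 ± 36.2 RPKM at 60% RWC (log2 fold 1.51, SE 0.34, adjusted p = 0.00494), and its 313 ± 22.8 RPKM at 2% RWC were not called against 60% RWC (adjusted p = 0.0803). CIPK14-like Cp_V2_contig_30323 had 0 reads at 2% RWC and 25, 17 and 41 in water, at least 7.42-fold higher.

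**Figure D5:**
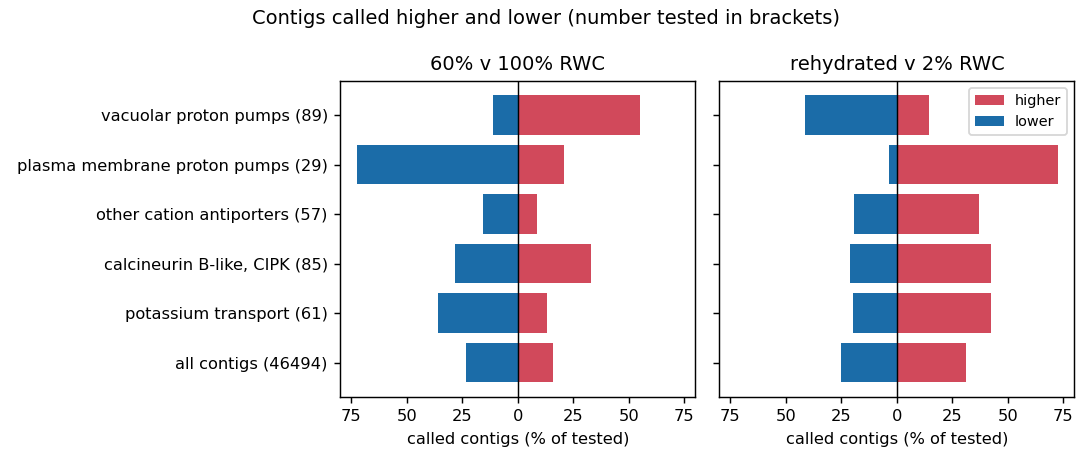
Percentage of tested contigs called higher (right of 0) and lower (left of 0) in 5 lists of transport and signalling contigs and in all 46494 contigs, at 60% against 100% RWC and rehydrated against 2% RWC. Vacuolar pumps (49 higher, 10 lower of 89) and plasma membrane pumps (6 higher, 21 lower of 29) lean to opposite sides on the left and swap sides on the right.

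The contigs whose levels most resembled those of the exchangers across the 12 libraries were sought among abundant contigs. Likeness was Pearson's r of log2(CPM + 1) among the 23247 contigs in the upper 50% by level, given as a description, since libraries of a state share their condition. For Cp_V2_contig_47446 the 5 most alike described contigs there were a phosphoglycerate mutase of glycolysis (Cp_V2_contig_26648, r = 0.999), an aldose reductase, which reduces sugars and toxic aldehydes (Cp_V2_contig_36475, 0.997), a chloroplastic lipid phosphate phosphatase gamma (Cp_V2_contig_37809, 0.996), a CSC1-like protein of a family of osmotically gated channels (Cp_V2_contig_1403, 0.996) and an uncharacterized protein (Cp_V2_contig_46454, 0.995). For Cp_V2_contig_47684 they were another lipid phosphate phosphatase gamma (Cp_V2_contig_30028, 0.997), tricalbin-3, a membrane contact site protein (Cp_V2_contig_6663, 0.995), the same mutase (0.994), a ricin B-like lectin R40G3 (Cp_V2_contig_4859, 0.994) and a membrane-associated kinase regulator 1 (Cp_V2_contig_26949, 0.994). The aldose reductase reached 205 ± 8.64 RPKM at 60% RWC from 0.479 ± 0.126 in fresh leaves, and the mutase 61.3 ± 2.51 from 0.356 ± 0.191. Such a course was not rare: 952 contigs (4.1%) had r above 0.9 with Cp_V2_contig_47446 and 999 (4.3%) with Cp_V2_contig_47684, whose r with each other was 0.993. The exchanger 4 contigs Cp_V2_contig_46339 (r = 0.997) and Cp_V2_contig_47877 (0.995), below that level limit, were as like Cp_V2_contig_47684 as those ranked. Its r was lower with Cp_V2_contig_45899 (0.967) and Cp_V2_contig_45014 (0.979). For Cp_V2_contig_47446, r was 0.985 with Cp_V2_contig_45899, 0.983 with Cp_V2_contig_47877 and 0.981 with Cp_V2_contig_45014, and higher than these with Cp_V2_contig_46339. Thus Cp_V2_contig_46339 and Cp_V2_contig_47877 were more like Cp_V2_contig_47684, and Cp_V2_contig_45899 and Cp_V2_contig_45014 more like Cp_V2_contig_47446.

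A complete lack of reads in fresh leaves was rare in the table. No fresh read and at least 30 reads in another state were found for 52 contigs (0.108%), while 133 contigs lacked reads at 60% RWC, 558 at 2% RWC and 48 after rehydration by the same measure. Among the 52, Cp_V2_contig_47446 was the third and Cp_V2_contig_47684 the seventh by RPKM at 60% RWC. Of the 52 contigs, 48 carried a number of 46000 or above in the assembly, a range that holds 2046 contigs and both exchangers; what the numbering stands for is not given in the sources used here. Contigs numbered directly before and after them were not among the 52.

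Markers of other cells were read beside these results. The guard cell list was made from the words epidermal patterning factor, speechless, fama and slow anion channel. It therefore holds genes of stomatal development and is not limited to mature guard cells. Of 13 tested guard cell marker contigs, 0 were higher and 8 lower at 60% RWC, and 10 were higher and 0 lower after rehydration against 2% RWC, opposite to exchanger 4 (all contigs 15.6% and 23.3%, then 31.1% and 25.4%). Their 14 contigs summed to 53.3 to 80.7 CPM in fresh leaves and 101 to 130 in water, against 18.8 to 23.6 at 60% RWC and 7.9 to 8.87 at 2% RWC. Root markers, mostly scarecrow-like proteins of a family not limited to roots, ran from 521 to 909 CPM over all states, with 4 higher and 22 lower of 70 at 60% RWC. Flower and pollen markers ran from 119 to 322 CPM, with 4 higher and 14 lower of 40, both beside 15.6% higher and 23.3% lower of all contigs. The part of cell make-up in the course of the exchangers was not tested.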

How the data were processed

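Leaf RNA of 12 libraries was analysed from a deposited expression table. Per the labels' protocols, total RNA was made into stranded libraries and sequenced as 75 bp paired ends. Whole-number read counts per contig were deposited by the authors, with total and unique reads per the file headers, and the authors' RPKM values rest on total reads and contig length, since recomputing them gave the same values within a relative difference of 1.56e-08. The deposited p-value columns were not used. The mapper, the assembler and whether counting used strand were not given in the sources used here, so contigs that overlap on opposite strands may share reads. The rehydrated columns were matched to the 24 h samples by name.

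Total reads were fitted in R 4.3.3 with edgeR 4.0.16: TMM scaling, filterByExpr (minimum count 10, minimum total 15), a mean per state over all 12 libraries and robust quasi-likelihood tests in 6 comparisons, Benjamini-Hochberg adjusted over 46494 contigs. SE is the absolute log2 fold divided by the square root of F. All 18 exchanger contigs passed the filter, the 2 chosen ones through their dry libraries. A fold against 0 reads is a bound with 3 counts per library. Named contigs were all exchangers, the 5 most alike to each chosen contig, and in each transport list the contig at the highest level and the called ones with the largest fold at 60% RWC and after rehydration. The contigs and lists were chosen, by words in the descriptions, with earlier results of these data known. Alternatives were DESeq2 1.42.0, RLE scaling, no filter, unique reads, a replicate block, the 2 compared states only, another family definition and each library left out. The procedure was tested on simulated counts. No library repeated another within sampling noise. Scatter between libraries of a state, as the chi-square per contig of each pair, was 75.5 to 91.9 in fresh leaves. In the other states it was 5.18 to 28.1, so comparisons with fresh leaves rest on the most scattered libraries.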

Additional observations from a re-analysis of the deposited data

How the results depend on the processing

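The declines of Cp_V2_contig_47446 and Cp_V2_contig_47684 from 2% RWC to rehydrated leaves were called under every alternative run. Their log2 folds were -4.34 to -3.64 and -4.86 to -4.29 when a library was left out. From 60% RWC they were -5.15 to -4.45 and -5.74 to -5.17. Every alternative kept the same 2 contigs, which many reads in drying leaves helped choose, so these calls still partly describe that choice. For Cp_V2_contig_47446 at 2% against 60% RWC, the log2 fold became past the threshold with the compared states only (-0.78, adjusted p 3.91e-05) and in DESeq2 (-0.77, adjusted p 0.0116), and when any 1 of the 3 fresh libraries or rehydrated replicate 1 or 3 was left out; over all 12 single libraries left out, with or without a call, it was -0.89 to -0.73. Of the 16 other exchangers at 2% against 60% RWC, 10 were called with the compared states only and 3 to 7 with a library left out, 3 without 60% RWC replicate 3. Rehydrated against fresh, 0 of the 16 were called with the compared states only and 5 in DESeq2. Over all contigs, the compared states only gave 11766 calls at 60% RWC against fresh and 380 for rehydrated against fresh; DESeq2 gave 7471 there, and leaving out a library 1522 to 11219, the highest without fresh replicate 2, with 2203, 1522 and 2808 without rehydrated replicates 1, 2 and 3. With the compared states only, the lists at 60% RWC against fresh had 7 (other cation antiporters; 7 to 18 with a library left out, 7, 8 and 7 without 60% RWC replicates 1, 2 and 3), 38 (vacuolar pumps), 34 (calcineurin B-like and CIPK) and 19 (potassium transport) calls; these list counts were added after the data were seen. A minimum of 300 in place of 30 reads left 17 contigs without fresh reads. The cause of these shifts was not tested. Of 71 called folds of other named contigs, 55 kept their call in all alternatives. Replicate numbers are only labels: over 18 pairs of libraries with the same number, r of the deviations was -0.151 to 0.253, above 0.1 in 3. With a replicate block, Cp_V2_contig_47446 and Cp_V2_contig_47684 had log2 folds of -4.04 and -4.56 for rehydrated against 2% RWC, no count or call of the 2 contigs changed its side, and the block ended 5 of the calls of other named contigs. Depth limits the rehydrated levels, which rest on 4 to 29 reads per library, and the fresh levels of exchanger 4, which rest on 36 reads in all.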
